A study of Homo sapiens with 10 samples.

Results

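NRF2, its inhibitor KEAP1 and their partner factors are described here as 9 listed genes, matched by Ensembl identifier among the 61533 genes counted in 10 RNA-seq libraries of human bladder cancer cells. The members were NFE2L2, NFE2L1, KEAP1, CUL3, MAFG, MAFF, MAFK, BACH1 and SQSTM1, and all 9 passed the filter on low counts, which left 16181 genes for testing. T24 is an established bladder cancer cell line, and T24R2 is a cisplatin-resistant line derived from it by serial exposure to the drug, so the resistant cells are a single derived line. Each line gave 5 libraries, labelled Day 3 of growth at confluence in RPMI with serum and antibiotics. The study's methods add that T24R2 was maintained in medium with cisplatin, while the labels name an identical medium for both lines, so line and drug exposure cannot be told apart. The members were picked with the contrast of these lines in view, so their fold changes are given as a description, with no p-value.

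NRF2, the product of NFE2L2, is a transcription factor of the cap'n'collar (CNC) family that turns on genes of antioxidant defence, glutathione synthesis and detoxification. In unstressed cells KEAP1 holds NRF2 and presents it to the ubiquitin ligase built on CUL3, which leads to its degradation; oxidants and electrophiles modify KEAP1 and let NRF2 accumulate. NRF2 binds DNA as a heterodimer with a small MAF protein, encoded by MAFG, MAFF or MAFK, and BACH1 competes for the same partners and sites as a repressor. SQSTM1 encodes p62, an autophagy receptor that captures KEAP1, and NFE2L1 encodes NRF1, a related factor best known for driving proteasome genes. Much of this control acts on protein, which was not measured here.

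The libraries held 9257843 to 10840954 counted fragments each, of which 2.35% to 2.97% came from mitochondrial genes. Levels are counts scaled to library size by the trimmed mean of M values (TMM) and written as CPM, a scale that allows comparison between libraries. Levels and ratios after a ± sign carry the SD over the 5 libraries of a line (n = 5). A gene is called higher or lower in T24R2 when its adjusted p was under 0.05 and its log2 fold change was beyond 0.5 in either direction. By this rule 51.4% of all tested genes were called, 24.9% higher and 26.5% lower, and their median log2 fold change was 0.01. With no scaling beyond library size that median moved to 0.18, so a change of that size depends on the scaling. The keratins KRT7, KRT8 and KRT18 were abundant in both lines, whereas the urothelial markers KRT20, UPK1B, UPK3A and CDH1 had at most 3 counts in every library. All 9 tested urothelial markers were called lower in T24R2 by edgeR: KRT19 was 267 ± 7.23 CPM in T24 and had at most 3 counts in each T24R2 library, as did EPCAM (4.45 ± 0.899 CPM in T24), and GATA3 went from a mean of 22.1 to 0.214 CPM (log2 fold change -6.57, SE 0.24). UPK2, PPARG and FOXA1 were lower as well. The summed level of the 14 urothelial markers was 5009 to 5742 CPM in T24 and 3028 to 3232 CPM in T24R2, and that of 4 leukocyte markers was at most 1.79 CPM. The 3 endothelial markers summed to 225 to 278 CPM in T24 and to at most 2.495 CPM in T24R2, nearly all of it CDH5 in T24. In such bulk samples, fewer cells of a type and less RNA per cell cannot be told apart, and the part of these markers in the results was not tested.

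Of the 9 members, 4 were called higher in T24R2 (NFE2L2, NFE2L1, KEAP1 and CUL3), 3 lower (BACH1, MAFF and MAFK) and 2 neither (MAFG and SQSTM1). The activator, its inhibitor and the ligase scaffold thus lay on one side, and the repressor and 2 of the small MAF genes on the other. With 51.4% of all genes called, nothing is read from the number of members called. On the CPM scale the levels of the 5 libraries of T24 and of T24R2 did not overlap for any member except MAFG. The share of all tested genes without overlap was not counted, so nothing is read from this either. On a scale per length (TPM), whose totals are not adjusted by TMM, MAFK overlapped (32.9 to 34.9 in T24, 22.4 to 33.9 in T24R2), and MAFG did not (40.1 to 44.4 and 44.6 to 51.3).

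**Figure D1:**
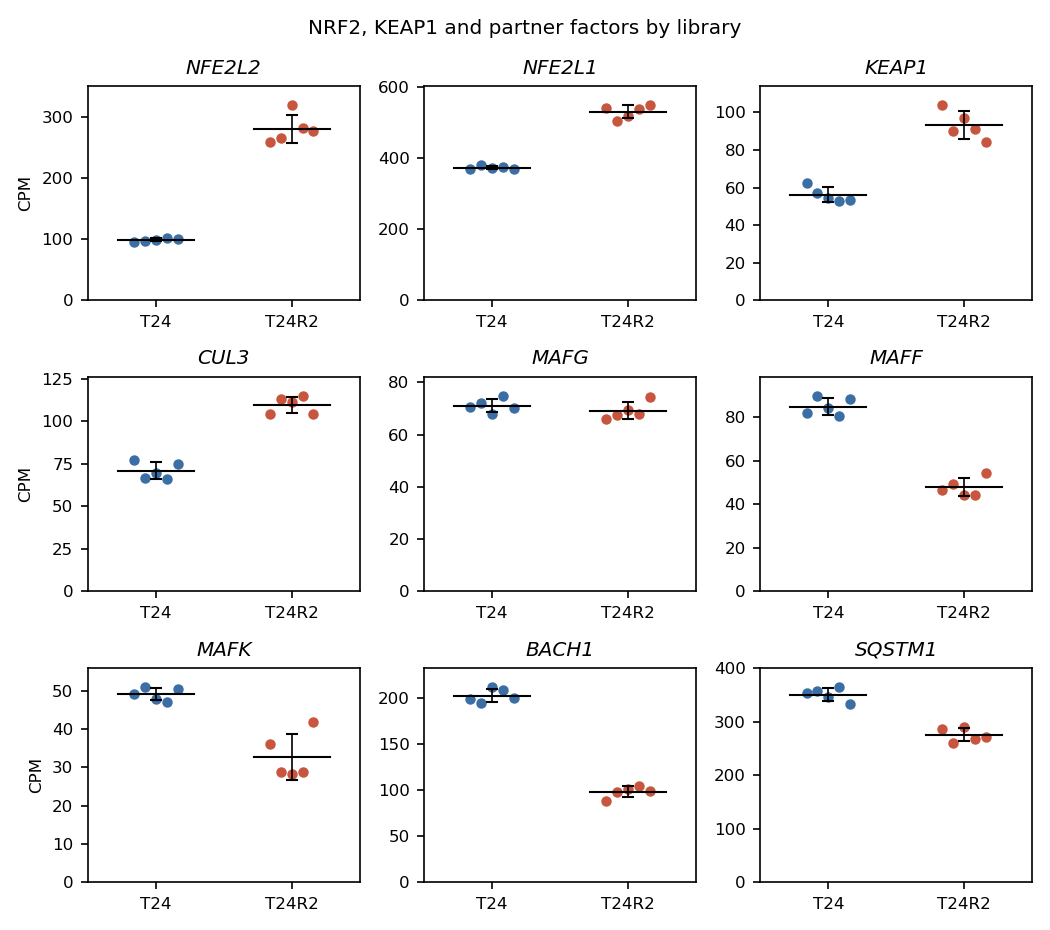
Level of each member in CPM (vertical axes, from 0) in the 5 T24 and 5 T24R2 libraries. Points are libraries, long horizontal bars are means and error bars are SD. NFE2L2 stands apart by the widest margin, at 96.2 to 102 CPM in T24 and 259 to 318 CPM in T24R2, while the points of MAFG overlap.

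NFE2L2 (ENSG00000116044.16, chromosome 2 of hg38, 177227595 to 177392697, minus strand) measured 96.2, 97.6, 98.2, 102 and 100.1 CPM in the 5 T24 libraries and 259, 265, 318, 282 and 277 CPM in the 5 T24R2 libraries. Every T24R2 library was above every T24 library, and T24R2 replicate 3 was the highest. The mean rose from 98.9 ± 2.33 to 280.1 ± 23.3 CPM, 2.83 times the T24 level, a log2 fold change of 1.502 (SE 0.05). Among all tested genes 6.35% had a larger log2 fold change. The spread between libraries was close to counting error in T24, with a coefficient of variation of 2.35% against 3.30% from counting alone, but larger in T24R2, at 8.31% against 1.82%.

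KEAP1 (ENSG00000079999.14, chromosome 19, 10486125 to 10503558, minus strand) encodes the adaptor that hands NRF2 to the ligase. Its level was 62.7, 57.1, 54.5, 53.0 and 53.6 CPM in T24 and 104, 89.9, 97.1, 91.1 and 84.2 CPM in T24R2. The inhibitor was therefore higher in the same line as the factor it holds back, with no overlap between the lines. The mean rose from 56.2 ± 3.96 to 93.2 ± 7.45 CPM, 1.66 times the T24 level, a log2 fold change of 0.73 (SE 0.06).

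CUL3 (ENSG00000036257.14, chromosome 2, 224470150 to 224585397, minus strand), the scaffold of the ligase, measured 77.2, 66.8, 69.7, 66.4 and 75.2 CPM in T24 and 105, 113, 112, 115 and 104 CPM in T24R2. Its log2 fold change of 0.62 (SE 0.05) was close to that of KEAP1, and both genes were higher in T24R2. RBX1, another gene of this ligase, had a log2 fold change of -0.29 and was not called. KEAP1 and CUL3 transcripts stood in nearly the same ratio in both lines: there were 2.55 ± 0.168 KEAP1 transcripts per CUL3 transcript in T24 and 2.74 ± 0.271 in T24R2 (from TPM, a count per length). That ratio ranged from 2.29 to 2.75 in T24 and from 2.56 to 3.19 in T24R2, so the lines overlapped.

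SQSTM1 (ENSG00000161011.20, chromosome 5, 179806398 to 179838078, plus strand) measured 353, 357, 346, 364 and 332 CPM in T24 and 286, 261, 290.0, 268 and 272 CPM in T24R2. The T24R2 libraries were all below the T24 libraries, but the log2 fold change of -0.35 (SE 0.04) did not reach the minimum for a call. Of the exon bases of SQSTM1, 22.4% lie opposite exons of MRNIP or MGAT4B, and reads of genes that overlap on opposite strands cannot be told apart where a kit keeps no strand. Taking off the whole counts of both genes turned the log2 fold change to 4.15, since it left a mean of 40.6 of 3254 counts in T24. Taking them off in proportion to the shared bases, an alternative chosen after seeing the data, gave -0.34. Per KEAP1 transcript there were 2.97 ± 0.208 SQSTM1 transcripts in T24 and 1.41 ± 0.0813 in T24R2 (TPM).

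BACH1 (ENSG00000156273.16, chromosome 21, 29194071 to 29630751, plus strand), the repressor at NRF2 sites, measured 198, 194, 211, 208 and 199.7 CPM in T24 and 88.5, 98.1, 101, 105 and 98.8 CPM in T24R2. The lowest T24 library was well above the highest T24R2 library. The mean fell to 48.6% of the T24 level, from 202 ± 7.09 to 98.3 ± 6.06 CPM, a log2 fold change of -1.04 (SE 0.05). Because NFE2L2 and BACH1 moved in opposite directions, their ratio within a library changed more than either gene. It went from 0.661 ± 0.0208 NFE2L2 transcripts per BACH1 transcript in T24 to 3.85 ± 0.255 in T24R2 (TPM), 5.83 times the T24 ratio. A ratio taken within a library does not depend on how libraries are scaled.

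The small MAF genes encode proteins with a DNA-binding and dimerization region but no activation domain of their own. MAFF (ENSG00000185022.12, chromosome 22, 38200767 to 38216507, plus strand) measured 81.8, 89.5, 84.2, 80.3 and 88.3 CPM in T24 and 46.6, 49.2, 44.2, 44.5 and 54.3 CPM in T24R2. All T24R2 libraries were lower, with a log2 fold change of -0.83 (SE 0.06). PLA2G6 lies opposite 5.81% of the exon bases of MAFF, and the value was -1.30 with its whole counts taken off. MAFK (ENSG00000198517.10, chromosome 7, 1530702 to 1543043, plus strand) measured 49.2, 50.8, 47.9, 47.1 and 50.3 CPM in T24 and 36.0, 28.8, 28.3, 28.9 and 41.9 CPM in T24R2. On the CPM scale it was lower in every T24R2 library, but replicates 1 and 5 of T24R2 stood above the other three, and the coefficient of variation there was 18.3% against 5.32% from counting alone. The log2 fold change of MAFK was -0.59 (SE 0.08), and it was -0.42, short of a call, with no scaling beyond library size. Exons of TMEM184A lie opposite 18.1% of the exon bases of MAFK.

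MAFG (ENSG00000197063.11, chromosome 17, 81918270 to 81927735, minus strand) measured 70.6, 72.1, 67.9, 74.5 and 70.3 CPM in T24 and 66.0, 67.4, 69.2, 68.0 and 74.4 CPM in T24R2. The lines overlapped, and the log2 fold change of -0.04 (SE 0.06) turned to 0.12 with no scaling beyond library size and to 0.03 under upper-quartile scaling. The make-up of the small MAF pool differed between the lines. On the TPM scale MAFG made up 34.2% ± 1.32 of small MAF transcripts in T24 and 45.5% ± 2.38 in T24R2, MAFF 38.1% ± 1.06 and 29.4% ± 1.07, and MAFK 27.7% ± 0.445 and 25.1% ± 2.64. The MAFG and MAFF shares did not overlap between lines, whereas those of MAFK did. There were 0.440 ± 0.0156 NFE2L2 transcripts per small MAF transcript in T24 and 1.71 ± 0.226 in T24R2, while the ratio of BACH1 to small MAF transcripts went from 0.666 ± 0.0384 to 0.445 ± 0.0497.

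NFE2L1 (ENSG00000082641.16, chromosome 17, 48048329 to 48061545, plus strand) had the highest level of the members in both lines per length of summed exon bases. It measured 369, 379.9, 374, 376 and 370.4 CPM in T24 and 542, 504, 519.5, 539 and 549 CPM in T24R2. The lines did not overlap, but the log2 fold change of 0.51 (SE 0.04) sat at the edge of the call. It was 0.4996 under DESeq2 with shrinkage. Leaving out replicate 1, 3 or 5 of T24 or replicate 5 of T24R2 brought it to between 0.4956 and 0.4998, under the minimum of 0.5, and taking off opposite-strand counts by shared bases brought it to 0.49. The third CNC activator with counts, NFE2L3, is no member and was chosen as part of the list of other CNC and large MAF factors. It fell from 135 ± 3.04 to 21.5 ± 1.02 CPM, a log2 fold change of -2.65 (SE 0.06, adjusted p = 7.7e-33 by edgeR's quasi-likelihood F test, Benjamini-Hochberg adjusted). On the TPM scale NFE2L2 made up 15.5% ± 0.363 of the transcripts of NFE2L1, NFE2L2 and NFE2L3 in T24 and 34.1% ± 2.06 in T24R2, whereas NFE2L3 went from 27.9% ± 0.422 to 3.47% ± 0.219. BACH2, a relative of BACH1, rose from 1.05 ± 0.380 to 3.76 ± 0.422 CPM (log2 fold change 1.82, SE 0.28, adjusted p = 2e-07 by the same test). NFE2, MAF and MAFA had too few counts to be tested, and NRL, at 1.74 CPM in T24 and 1.46 CPM in T24R2, was not called.

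Levels of different genes can be set side by side only per length, so they are given in TPM. The length used is the summed exon bases of a gene, which can exceed that of the transcripts present. The order of the members, and ratios between them within a line, therefore depend on that length. In T24 the order was NFE2L1 (195 ± 3.41 TPM), SQSTM1 (143 ± 5.05), BACH1 (81.1 ± 3.92), NFE2L2 (53.5 ± 2.03), KEAP1 (48.2 ± 2.82), MAFF (46.4 ± 2.03), MAFG (41.6 ± 1.65), MAFK (33.7 ± 0.837) and CUL3 (18.96 ± 1.29). Over the 5 libraries NFE2L2 overlapped KEAP1, KEAP1 overlapped MAFF and MAFF overlapped MAFG, and the other neighbours in that order did not overlap. In T24R2 NFE2L1 was again first (323 ± 11.5 TPM), but NFE2L2 was second (177 ± 13.9), ahead of SQSTM1 (131 ± 4.45) and KEAP1 (93.4 ± 6.58). MAFG (47.2 ± 2.47) and BACH1 (46.0 ± 3.06) overlapped, as did CUL3 (34.1 ± 1.66) with MAFF (30.5 ± 2.87) and MAFF with MAFK (26.3 ± 4.87). In T24 NFE2L2 was thus below BACH1, and in T24R2 it was above it in every library.

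**Figure D2:**
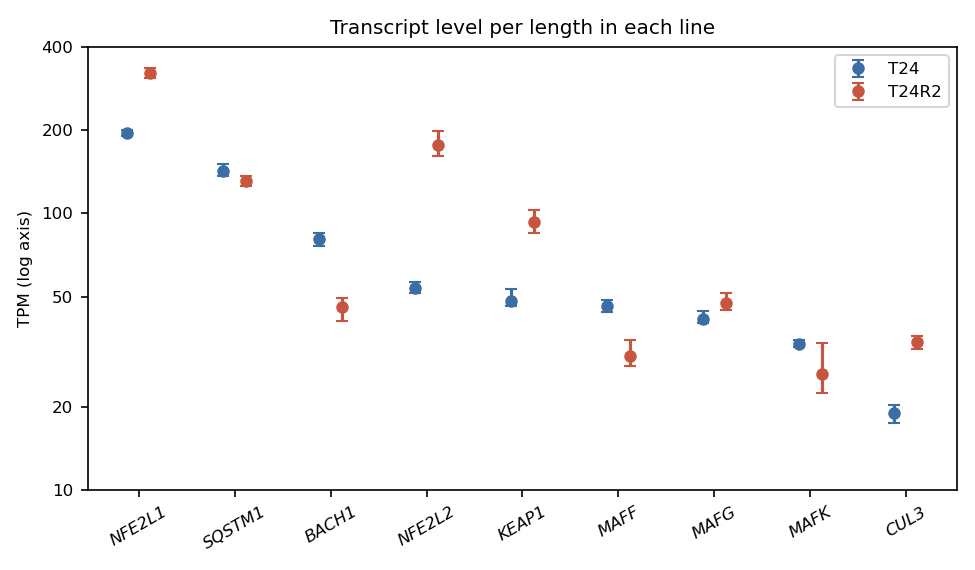
Mean transcript level of each member in TPM (vertical log axis) in T24 and T24R2. Points are means of 5 libraries and bars run from the lowest to the highest library. NFE2L2 stands at 53.5 TPM in T24, below BACH1 at 81.1 TPM, and at 177 TPM in T24R2, above BACH1 at 46.0 TPM.

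Short stretches of promoter sequence show where the letters of the antioxidant response element, the site bound by NRF2 with a small MAF protein, occur in these genes. RefSeq promoters of GRCh38.p14 (250 bases before to 50 after a transcription start) were searched on both strands for TGACNNNGC, the core of that element, and for TGANTCA, the core of the site of AP-1 factors. The motifs overlap where TGACTCAGC occurs. The promoter table held 8 of the 9 members, all except MAFK. TGACNNNGC was in the promoter of 2 of these 8 members, KEAP1 and MAFF, and in that of 16.1% of all 27305 genes with a promoter. TGANTCA was in 1 of the 8, BACH1, and in 9.37% of all genes. The windows around these matches follow, with those of GCLM and ME1, NRF2 target genes that hold the motif, for comparison. Capitals mark the motif, and each window is written along the gene's strand.
KEAP1, nearer site: ccggctctGCTTAGTCAtggtgacc
KEAP1, farther site: ttttattgTGACACGGCgggcgccc
MAFF: tccaggggGCGGGGTCAtacggggg
BACH1: ggaaggagTGAGTCAcctgaccg
GCLM: cgatttctGCTTAGTCAttgtcttc
ME1: tcctgccaTGACTCAGCgcttctcg

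The KEAP1 windows lie on the minus strand at chr19:10502786-10502810 and chr19:10502809-10502833, and their motifs begin 31 and 54 bases before a RefSeq start. The nearer KEAP1 site reads GCTTAGTCA along the gene, the same letters as the GCLM site (chr1:93909448-93909472, minus strand, 34 bases before the start). The MAFF window is at chr22:38201864-38201888 (plus strand, 122 bases before), the BACH1 window at chr21:29298866-29298888 (plus strand, 48 bases before) and the ME1 window at chr6:83431172-83431196 (minus strand, 137 bases before). Of the members with the TGACNNNGC letters, KEAP1 was higher and MAFF lower in T24R2. Among 27 NRF2 target genes with a promoter in the table, 11 (40.7%) held TGACNNNGC, and 3 held TGANTCA. With an A required after the last letter of TGACNNNGC, which left 3.94% of all genes, the counts were 1 member (KEAP1) and 6 target genes. A match is a run of letters and not a measured binding site, and its absence says only that these letters are not in the window.

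Most of the tested genes on a list of NRF2 target genes were higher in T24R2. Of 39 NRF2 target genes 35 were tested, and 24 were called higher in T24R2, 68.6% of those tested against 24.9% of all genes. Their median log2 fold change was 1.05, against 0.01 over all genes. No target gene was called lower by edgeR, DESeq2 or limma-voom, although 4 had a fold change below 0 at an unadjusted p under 0.05 in edgeR. The nearest to a lower call was the efflux pump gene ABCC4, with a log2 fold change of -0.49, which passed it when replicate 1, 4 or 5 of T24 or replicate 2 of T24R2 was left out. These gene lists were drawn up with earlier results of the data known, so the counts are a description.

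**Figure D3:**
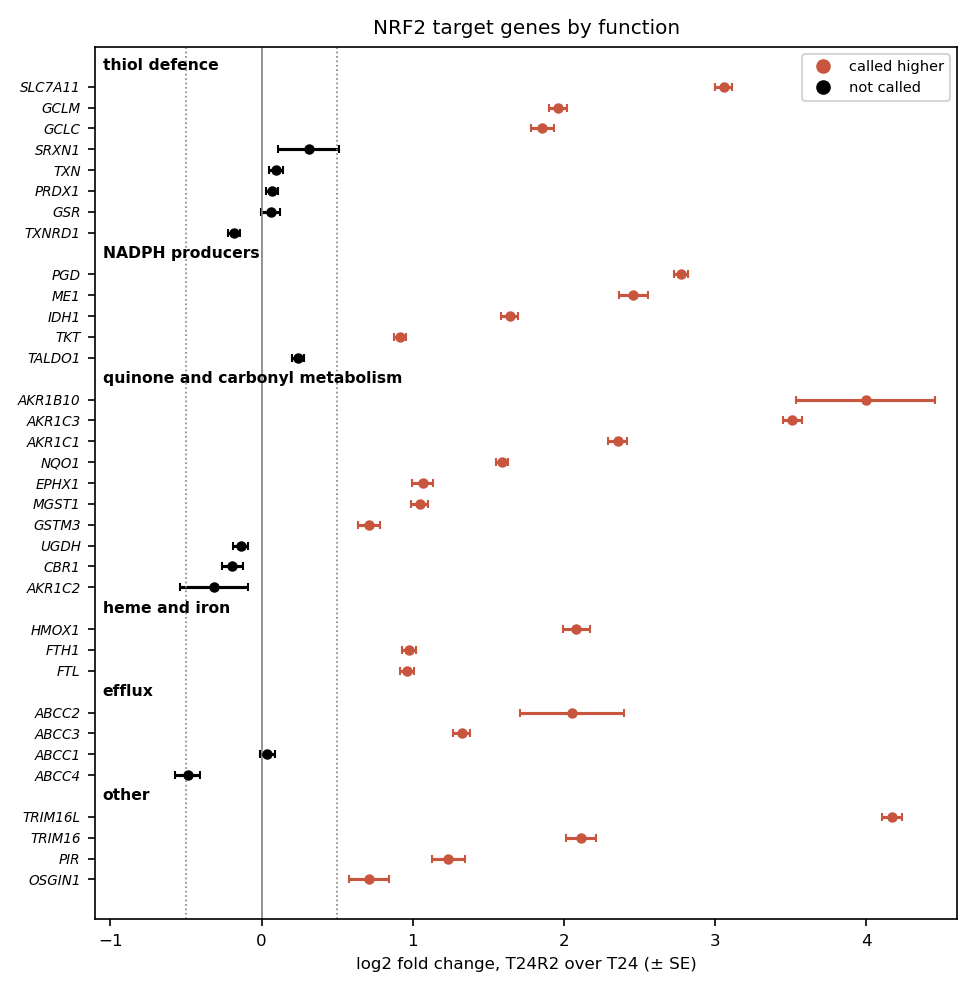
Log2 fold change of T24R2 over T24 (horizontal axis, error bars SE) for the tested NRF2 target genes that are reported by name, grouped by function. Red points were called higher and black points were not called, and dotted lines mark 0.5 in either direction. The higher genes span every group, while SRXN1, TXN, PRDX1, GSR and TXNRD1 in thiol defence sit near 0.

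In thiol defence 3 of 8 tested genes were higher: SLC7A11, the cystine importer, and GCLM and GCLC, the subunits of the enzyme that limits glutathione synthesis. SLC7A11 rose from 57.8 ± 5.79 to 481 ± 31.4 CPM (log2 fold change 3.06, SE 0.06, adjusted p = 3.7e-35), GCLM from 26.7 ± 1.502 to 104 ± 4.52 CPM (1.96, SE 0.06, adjusted p = 1.2e-27) and GCLC from 15.6 ± 1.83 to 56.6 ± 1.15 CPM (1.86, SE 0.08, adjusted p = 3.6e-23), all by edgeR's quasi-likelihood F test, Benjamini-Hochberg adjusted. The genes of the thioredoxin and glutathione reductase systems were short of a call. TXNRD1 was 935 ± 35.7 CPM in T24 and 823 ± 22.6 CPM in T24R2 (log2 fold change -0.18), TXN 238 ± 10.3 and 254 ± 7.49 CPM (0.10) and GSR 53.0 ± 3.66 and 55.3 ± 3.92 CPM (0.06).

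Among enzymes of NADPH supply 5 of 6 were higher. PGD, of the pentose phosphate pathway, rose from 107 ± 5.82 to 734 ± 11.9 CPM (log2 fold change 2.77, SE 0.05, adjusted p = 3.6e-37 by the same edgeR test). ME1, the cytosolic malic enzyme, had a log2 fold change of 2.46 (adjusted p = 1.6e-24) and IDH1, the cytosolic isocitrate dehydrogenase, one of 1.64 (adjusted p = 2.5e-26).

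Of 10 tested genes of quinone and carbonyl metabolism 7 were higher. NQO1, a quinone reductase often used as a readout of NRF2, rose from 346 ± 13.7 to 1041 ± 8.09 CPM (log2 fold change 1.59, SE 0.04, adjusted p = 1.4e-30 by edgeR). The aldo-keto reductases AKR1C3 and AKR1C1 had log2 fold changes of 3.51 and 2.36, whereas AKR1C2 was 3.91 ± 0.858 CPM in T24 and 3.13 ± 0.827 CPM in T24R2 and was not called. The AKR1C genes are near-identical copies and only uniquely mapped reads were counted, so their separate levels are uncertain.

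All 3 tested genes of heme and iron handling were higher. HMOX1, heme oxygenase, is a gene that BACH1 is known to repress, and it rose from 13.1 ± 1.43 to 55.5 ± 5.80 CPM (log2 fold change 2.08, SE 0.09, adjusted p = 3.7e-23 by edgeR). The ferritin genes FTL and FTH1 each had a log2 fold change of 0.97. Other genes overlap 63.2% of the exon bases of FTH1 on the opposite strand, and FTH1 has many processed pseudogenes, so its level is uncertain. Of 4 efflux pumps ABCC3 (log2 fold change 1.32, adjusted p = 5.8e-23 by edgeR) and ABCC2 (2.05, adjusted p = 1.3e-06, at 2.80 ± 0.660 CPM in T24R2) were higher, and ABCC1, at 92.2 ± 4.56 and 94.7 ± 3.05 CPM, was not. In the remaining group TRIM16L, TRIM16 and PIR had log2 fold changes of 4.17, 2.11 and 1.24, and TRIM16 and TRIM16L also share near-identical sequence.

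The genes around the members, those that act on them or are controlled by NFE2L1, were called in both directions. The other 8 pathway lists held 85 genes, of which 80 were tested, and 11 were called higher and 11 lower, 13.8% each against 24.9% and 26.5% of all genes, with a median log2 fold change of 0.03. The balance depended on the scaling, with 24 higher and 9 lower with no scaling beyond library size and 18 and 10 under upper-quartile scaling. In the list of NRF2 turnover machinery, FBXW11 and CUL1, parts of the beta-TrCP ligase that degrades NRF2 without KEAP1, were higher (log2 fold changes 1.34 and 1.12, adjusted p = 1.5e-25 and 1.1e-19 by edgeR). BTRC, which encodes the other beta-TrCP protein, was lower at -0.51 (adjusted p = 1.9e-06), and the other 9 genes of that list, among them RBX1 and NEDD8 of the CUL3 ligase, were not called. Both F-box genes listed for BACH1 turnover were higher, FBXO22 at 0.65 (adjusted p = 1.5e-12) and FBXL17 at 0.87 (adjusted p = 9e-11), in the line where BACH1 mRNA was lower.

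Among 7 genes whose proteins can compete with NRF2 for KEAP1 or interfere with its capture, PALB2 was higher (log2 fold change 0.59, adjusted p = 3.6e-07 by edgeR). IKBKB and CDKN1A were lower. CDKN1A, which encodes the cell cycle inhibitor p21, fell from 97.7 ± 4.11 to 12.8 ± 1.76 CPM (log2 fold change -2.93, SE 0.08, adjusted p = 1.4e-30 by edgeR), and IKBKB had a log2 fold change of -1.25 (adjusted p = 1.1e-21). In the list of p62 partners and kinases the autophagy kinase gene ULK1 was higher at 1.02 (adjusted p = 2.1e-19) and CSNK2A1, a subunit of casein kinase 2, lower at -0.66 (adjusted p = 1.7e-16). Of NRF2 coregulators the acetyltransferase gene EP300 was higher at 0.92 (adjusted p = 2.9e-20) and RXRA, whose product can repress NRF2, lower at -0.77 (adjusted p = 2.3e-16).

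NFE2L1 protein is made in the endoplasmic reticulum membrane and is cut and freed before it acts. None of the 7 genes listed for this processing was called by edgeR, DESeq2 or limma-voom, although 4 had an unadjusted p under 0.05 in edgeR. Of all tested genes 51.4% were called by edgeR. The protease gene DDI2 had a log2 fold change of -0.36 and the deglycosylase gene NGLY1 one of 0.44. Of 32 tested proteasome genes, the best known targets of NFE2L1, 3 were higher and 5 lower, with a median log2 fold change of 0.03. These were 9.4% and 15.6% of the tested proteasome genes, against 24.9% and 26.5% of all genes. PSMC2 was highest at 0.76 (adjusted p = 8.6e-17 by edgeR), followed by PSMB6 at 0.54 and PSMB4 at 0.53. PSMD2 fell from 733 ± 33.4 to 309.8 ± 13.6 CPM (log2 fold change -1.24, SE 0.04, adjusted p = 6e-26 by edgeR), and PSMC3 and PSMD13 had log2 fold changes of -0.92 and -0.81.

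The genes that lie next to NFE2L2 on chromosome 2 were also higher in T24R2. This comparison of each member with its neighbours was added after the values were seen, and the sets are a description with no test. Of 44 tested genes within 2.5 Mb of NFE2L2, 36 were called higher (81.8%, against 24.9% of all genes), 5 lower and 3 neither, with a median log2 fold change of 1.56. NFE2L2 itself, at 1.502, was 0.06 below that median and above 20 of the 44 neighbours. Within 1 Mb all 15 tested neighbours were called higher, with a median of 1.55. Among them were genes that overlap exons of NFE2L2 itself and are not independent of it. ENSG00000222043 (log2 fold change 1.44) lies opposite 3.35% of its exon bases, and ENSG00000213963 shares 18.6% of them on the same strand. ENSG00000213963 had the lowest value within 1 Mb, 0.72, at 1.88 CPM in T24 and 3.12 CPM in T24R2, and its levels overlapped between the lines.

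The neighbours of NFE2L2 were of many kinds. All 10 whose mean reached 32 CPM were called higher. HNRNPA3, which encodes an RNA-binding protein, rose from 479.7 ± 7.77 to 1059 ± 48.9 CPM (log2 fold change 1.14), and ATP5MC3, of the mitochondrial ATP synthase, from 96.9 ± 4.56 to 248 ± 27.2 CPM (1.36). The peroxisomal enzyme gene AGPS had a log2 fold change of 1.47, the transcription factor gene ATF2 one of 1.61 and LNPK, of the endoplasmic reticulum, one of 1.85. The 5 lower neighbours lay together 1.04 to 1.12 Mb away, and 3 of them were the homeobox genes HOXD1, HOXD10 and HOXD11. They did not form an unbroken block, since 7 genes in the same stretch were called higher, with log2 fold changes of 0.71 to 2.29.

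The shift did not extend evenly over the chromosome. From 2.5 to 5 Mb away the median log2 fold change of 22 genes was 0.18, and from 5 to 10 Mb that of 41 genes was 0.86. Over the 1031 other tested genes of chromosome 2 the median was 0.35, with 41.1% called higher. DNA copy number was not measured in these libraries, and its part in the level of NFE2L2 was not tested.

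**Figure D4:**
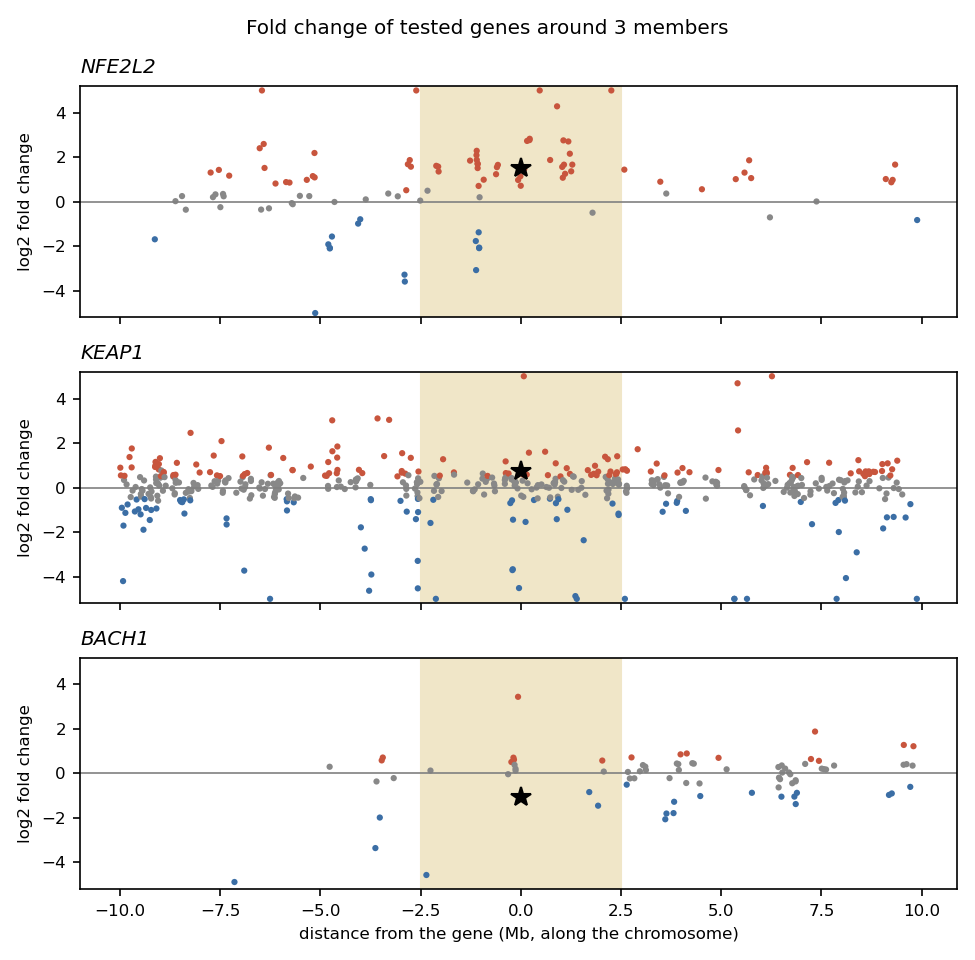
Log2 fold change of T24R2 over T24 (vertical axis, values beyond 5 in either direction drawn at 5) against distance in Mb for tested genes within 10 Mb of NFE2L2, KEAP1 and BACH1. Stars are the members, red, blue and grey points are genes called higher, lower and neither, and shading marks 2.5 Mb. Most points near NFE2L2 are red (36 of 44), whereas those near KEAP1 and BACH1 gather around 0.

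The other members differed in how they stood against their neighbours. KEAP1 was above 119 of 131 neighbours, whose median log2 fold change was 0.20, and BACH1 was below 12 of 14 neighbours, whose median was 0.17. These members thus stood 0.53 above and 1.21 below their neighbours' medians. MAFG, whose levels overlapped between the lines, lay among genes that were mostly lower: of 97 neighbours 61 were called lower, with a median of -0.81, and MAFG was above 76 of them. MAFK, at -0.59, was close to the median of its 33 neighbours, -0.69, and NFE2L1, at 0.51, to that of its 96, 0.43. MAFF was 0.60 below the median of its 85 neighbours, SQSTM1 0.56 below that of its 55 and CUL3 0.32 above that of its 16. With the window narrowed to 1 Mb, an alternative chosen after seeing the data, CUL3 was 0.023 above its neighbours' median, SQSTM1 0.73 below and NFE2L1 0.11 below, in place of 0.08 above.

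**Figure D5:**
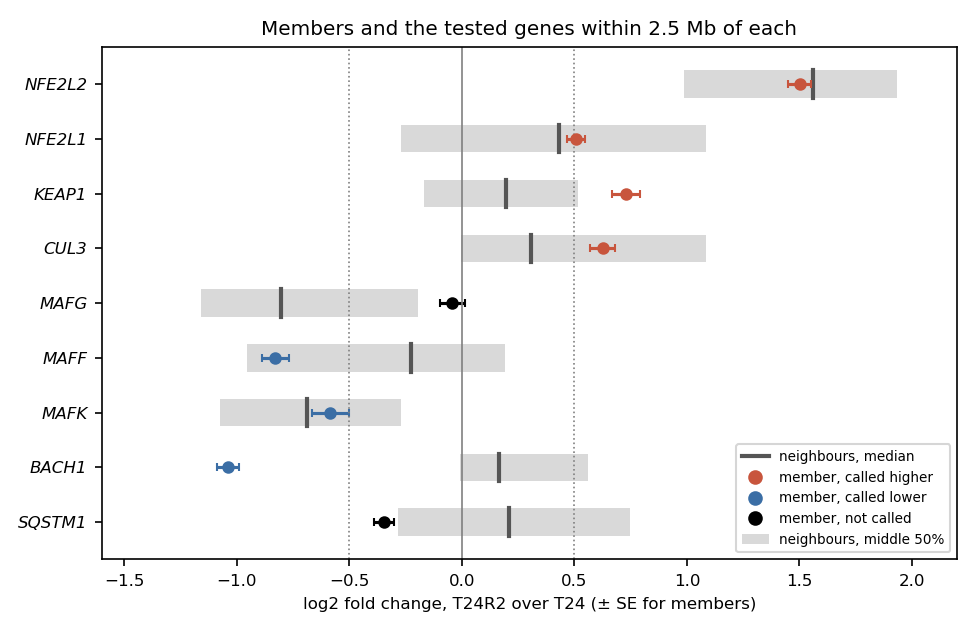
Log2 fold change of T24R2 over T24 (horizontal axis) for each member (points, bars SE) and for the tested genes within 2.5 Mb of it (grey box, middle 50%; dark line, median). NFE2L2 (1.502) lies inside its neighbours' box around 1.56, while BACH1 (-1.04) and KEAP1 (0.73) lie outside theirs.

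The neighbours of each NRF2 target gene called higher had a lower median log2 fold change than those of NFE2L2. For the 24 genes the median log2 fold change of the neighbours within 2.5 Mb ran from -0.44 to 0.62, with a median of 0.04, and was over 0.5 for 2 of them, TKT and IDH1. The share of neighbours called higher ran from 7.81% around ABCC2 to 51.9% around TKT, against 24.9% of all genes. Of the 24 genes 21 exceeded their neighbours' median by more than 0.5. These genes were chosen by a log2 fold change over 0.5, which largely sets that count. The share among all genes called higher was not taken, so nothing is read from it.

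Over the 10 libraries the genes whose log2 CPM followed NFE2L2 most closely were IDH1 and PIP5K1A (Pearson's r = 0.999 each) and DPYSL3 (r = 0.998), among 6530 genes whose mean reached 32 CPM. For KEAP1 they were PRCC and GPR137 (r = 0.991 each) and SMPD4 (r = 0.989). The libraries fall into the lines, so r mostly reflects the difference between lines: 1165 genes reached 0.95 with NFE2L2 and 621 with KEAP1.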

How the data were processed

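RNA-seq was compared between T24 and T24R2, 5 libraries each, grouped by the cell line in the labels. Per the study's methods and the file headers, the authors used STAR 2.7.0 to align paired reads to hg38, removed duplicates and reads that mapped more than once (samtools 1.10) and deposited whole-number counts per gene from featureCounts 2.0.1 (strand option 1, GENCODE 39). Fragments that hit more than 1 gene on a strand were not counted, and the library kit is not described as strand-specific, so reads of a gene and its opposite-strand partner cannot be told apart. The deposited gene length, the summed exon bases, was used for TPM.

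The counts were fitted with edgeR 4.0.16 in R 4.3.3 (quasi-likelihood test, TMM scaling, default filter on low counts, Benjamini-Hochberg adjustment over 16181 genes), and a call needed an adjusted p under 0.05 and a log2 fold change beyond 0.5. On simulated data edgeR called 200 of 200 changed genes and 2 unchanged ones of 15946. Unlike the real data, the simulation changed few genes, all well counted, by large and balanced amounts. It also gave every gene the same spread, so it does not measure the error of the calls reported here. The labels do not say that libraries are separate cultures, so p-values measure only the spread between these samples. Pairs of replicates differed by more than counting error (chi-square per degree of freedom 2.01 to 7.04), so none was merged. The biological coefficient of variation was 6.6%.

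The members and gene lists were chosen with earlier results of these data known. Named were all members, up to 3 called genes per list and direction (per function for NRF2 target genes) with the smallest adjusted p, opposite-strand genes that overlap members and the 3 genes most correlated with NFE2L2 and KEAP1; TKT, the target and list genes that were not called, and the neighbours of NFE2L2 were named after their values were seen. Neighbours were tested genes centred within 2.5 Mb, including genes that overlap exons of the member. Promoters came from RefSeq, and gene positions and overlaps from GENCODE on hg38. Opposite-strand overlaps not given above were GRIK1 with 0.587% of the exon bases of BACH1 and ENSG00000264769 with 4.27% of those of MAFG. Alternatives were other scalings, DESeq2 1.42.0, limma-voom 3.58.1, other filters and thresholds, a replicate block, leaving out each library and taking off opposite-strand counts. Neighbour windows of 1 and 5 Mb, the minimum of 32 CPM and the subtraction by shared bases were chosen after seeing the data. Some listed genes enter the counts but are not reported by name here.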

Additional observations from a re-analysis of the deposited data

Results flagged for a closer look

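In 92 comparisons (46 members and named genes in 2 lines) 1 library stood apart from the other 4 of its line 3 times, and chance gives about 1 in 20, or 4.6. PIR measured 24.7 CPM in T24R2 replicate 3 against 19.7 to 20.8 CPM in the others. PSMC3 measured 109.8 CPM in T24R2 replicate 1 against 97.5 to 101 CPM. PSMD13 measured 237 CPM in T24 replicate 1 against 214 to 219.5 CPM. None of the 9 members was set apart in this way.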

How the results depend on the processing

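No member changed direction under other filters, thresholds or tools or when a library was left out, and the log2 fold change of NFE2L2 lay between 1.46 and 1.67 over 18 fits. With no scaling beyond library size MAFG turned to 0.12 and the median of the members to 0.12, and with upper-quartile scaling MAFG was 0.0306. Taking off whole opposite-strand counts turned SQSTM1 to 4.15 and the median of the members to 0.4885, because it left a mean of 40.6 of 3254 counts of SQSTM1 in T24; by shared bases the SQSTM1 value was -0.34. MAFK was short of a call at -0.42 with no scaling and at -0.48 with whole opposite-strand counts taken off. Called higher among the other pathway lists were 24 genes with no scaling and 18 with upper-quartile scaling, against 11 (lower, 9 and 10 against 11). With no count filter 2 NRF2 target genes were lower (ALDH3A1 and SLC40A1, at under 1 CPM). Requiring a mean of 100 counts left 2350 higher and 2641 lower genes of all. With no fold change minimum 6128 genes of all were higher, 4 NRF2 target genes lower, and 33 genes of the other lists higher and 24 lower. With a minimum of 1 there were 1918 higher and 2293 lower genes of all, 1 member higher (NFE2L2) and 1 lower (BACH1), and 4 higher and 4 lower genes of the other lists. Leaving out 1 library gave 0 to 1 lower NRF2 target genes (ABCC4) and 3 to 4 higher members.

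The labels share replicate numbers between lines, but same-numbered libraries did not deviate together (r from -0.021 to 0.0155, and 1 of 5 was best matched with its own number). With the replicate block 3979 genes were higher and 4261 lower, with 4 higher and 3 lower members and 24 higher NRF2 target genes.

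Depth limits genes under 5 CPM in both lines, such as ABCC2, AKR1B10, AKR1C2, BACH2 and NRL. Median fold changes of NFE2L2's neighbours were 1.55 within 1 Mb, 1.31 within 5 Mb and 1.41 for genes of at least 32 CPM.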
